A study of Mus musculus with 18 samples.

Results

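The 10 genes described here mark the epithelial to mesenchymal transition (EMT), the change in which joined, polarised cells become loose and motile. They were taken by symbol from each table, and all 10 were present in the 18 libraries among 24346 gene symbols. The epithelial genes were Cdh1 (E-cadherin, the main adherens junction cadherin), Epcam (an epithelial adhesion protein) and the tight junction claudins Cldn4 and Cldn6. The mesenchymal genes were Cdh2 (N-cadherin) and Vim (vimentin, an intermediate filament). The transcription factors were Snai1 and Snai2, Zeb2 and Twist1, which repress epithelial genes and induce the transition.

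Mouse embryonic stem (ES) cells are themselves epithelial: they grow as compact colonies held together by E-cadherin. When they form embryoid bodies, some cells go through an EMT of the kind that produces mesoderm and definitive endoderm at gastrulation, while others keep or build epithelia such as visceral endoderm. In the classical scheme, Snail, ZEB and Twist factors repress Cdh1 and N-cadherin takes the place of E-cadherin, but a bulk library holds every cell of the culture and can carry both programmes side by side.

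RNA-seq was done on 2 female hybrid ES cell lines with and without Kdm6a, an X-linked gene that escapes X inactivation and encodes a demethylase of the repressive histone mark H3K27me3. The Tsix-stop line came from a cross of a laboratory strain with Mus castaneus (cast) and carries a transcription stop in Tsix on the X chromosome that is not from cast, in wt, KO and control cells alike. It was sampled as ES cells (D0) and after embryoid body differentiation without leukemia inhibitory factor (D15), each day with 2 libraries of wt, 2 of Kdm6a KO and 1 of a CRISPR control. The study's methods describe embryoid bodies on non-adherent dishes up to D7, which were then plated on gelatin-coated dishes until D15. The form of culture thus changed along with the day. The E8 line came from a C57BL/6J and cast cross and was sampled at D7 and D15, with 2 wt and 2 Kdm6a KO libraries per day by its labels, while the study's methods describe E8 libraries of earlier days of differentiation, from a single wt control and a single KO clone. The labels were followed, so the days named for E8 rest on them alone.

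Homozygous Tsix-stop KO clones lacked Kdm6a sequence from exon 2 into exon 4, and the E8 KO lacked the Kdm6a promoter in 1 homozygous clone. The CRISPR control went through the same editing without a deletion. The study's methods give the Tsix-stop wt libraries as biological replicates and the KO libraries as 2 clones, but the labels do not tie a library to a clone, and for E8 nothing says that the 2 libraries of a group came from separate cultures, so p-values measure only the spread between these libraries. ES cells were kept on inactivated mouse embryonic fibroblasts, which were reduced by attachment to gelatin before use.

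Kdm6a itself was listed at 0.00969 to 0.0319 TPM (reads scaled by gene length and library total) in the KO libraries of E8 at D7, at 0.00578 to 0.0199 TPM in those at D15, and between 46.7 and 47.8 TPM in the wt libraries of both days. In the Tsix-stop line the deletion takes out part of the coding exons and the rest of the gene is still counted: the 2 KO libraries held 132 and 49.6 CPM (counts scaled by library total) at D0 against 139 and 211 in wt, and 94.8 and 27.6 at D15 against 132 and 105. Gene-level Kdm6a values therefore check the genotype labels of E8 but not its day labels, and do not check the Tsix-stop labels. Tsix-stop libraries held between 51091152 and 68796179 counts. The depth of the E8 libraries is unknown, because only TPM was deposited. Replicates of E8 lay closer together than those of Tsix-stop: over genes of 100 to 300 TPM, the robust SD of the log2 ratio between replicates was 0.0407 to 0.0732 in E8 and 0.152 to 0.219 in Tsix-stop.

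The Snail and ZEB factors bind the E-box CAGGTG, and the stretches in front of the epithelial genes that changed together during differentiation are printed for that reason. RefSeq promoters (GRCm38.p6) were given for 7 of the 10 genes (Epcam, Cldn4, Cldn6, Vim, Snai1, Zeb2 and Twist1). The 250 bases before each start were searched on both strands for CAGGTG, which reads CACCTG on the other strand. It was found in 4 of the 7 genes, against 19.4% of all 27025 genes with a promoter. Epcam held 2 copies, beginning 187 and 19 bases before the start, and 2.39% of all genes held 2 or more. Cldn6 held 1 copy at 93 bases, Cldn4 1 copy at 14 bases and Snai1 1 copy at 126 bases, and none was found in these windows of Vim, Zeb2 and Twist1. The upstream stretches of Epcam (chr17:87635729-87635978, plus strand), Cldn4 (chr5:134946935-134947184, minus strand) and Cldn6 (chr17:23679115-23679364, plus strand) and of Snai1 (chr2:167537945-167538194, plus strand), whose own E-box lies in the promoter of an E-box binding factor, read 5′ to 3′ as follows, with each E-box in capitals.
Epcam: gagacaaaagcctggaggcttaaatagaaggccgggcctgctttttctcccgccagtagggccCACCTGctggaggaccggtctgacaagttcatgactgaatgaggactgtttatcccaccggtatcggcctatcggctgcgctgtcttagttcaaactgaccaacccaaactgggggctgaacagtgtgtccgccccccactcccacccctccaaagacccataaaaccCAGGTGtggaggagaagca
Cldn4: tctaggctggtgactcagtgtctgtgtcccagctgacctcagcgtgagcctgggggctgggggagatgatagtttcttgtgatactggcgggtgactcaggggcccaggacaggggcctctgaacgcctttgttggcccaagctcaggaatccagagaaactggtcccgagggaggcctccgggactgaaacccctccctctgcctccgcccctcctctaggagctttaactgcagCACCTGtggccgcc
Cldn6: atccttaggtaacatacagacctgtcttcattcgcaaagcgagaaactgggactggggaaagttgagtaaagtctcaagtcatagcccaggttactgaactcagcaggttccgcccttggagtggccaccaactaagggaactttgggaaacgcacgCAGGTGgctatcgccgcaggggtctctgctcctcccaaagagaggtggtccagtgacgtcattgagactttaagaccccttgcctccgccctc
Snai1: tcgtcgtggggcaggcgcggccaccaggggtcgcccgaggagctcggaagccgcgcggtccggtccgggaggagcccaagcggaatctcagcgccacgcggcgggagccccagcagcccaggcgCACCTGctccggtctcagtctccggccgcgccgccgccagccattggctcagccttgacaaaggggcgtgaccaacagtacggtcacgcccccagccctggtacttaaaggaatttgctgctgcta
A match is a string of letters in a window and was not tested for binding.

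Per length, Cdh1 was the most abundant of the 10 genes in every Tsix-stop library of D0, at 398 and 448 TPM in wt. Vim followed at 230 and 231 TPM, then Cldn4 at 172 and 183 TPM and Epcam at 70.3 and 75.5 TPM. Cldn6, Cdh2 and the transcription factors all lay between 0.0228 and 10.2 TPM in wt ES cells, with Zeb2 at the bottom of the order. At D15 the order in wt was Vim (829 and 739 TPM), then Epcam (490 and 487), Cldn4 (449 and 531), Cldn6 (456 and 479) and Cdh1 (411 and 398). The wt libraries of Cldn4 overlapped those of both Epcam and Cldn6, so the order among these neighbours is not set, while those of Cdh1 lay below all 3. Below them came Snai1 (49 and 51.2 TPM), Twist1 (46.9 and 43.7), Cdh2 (29.7 and 24.9), Snai2 (26.8 and 21.1) and Zeb2 (4.56 and 3.58).

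**Figure D1:**
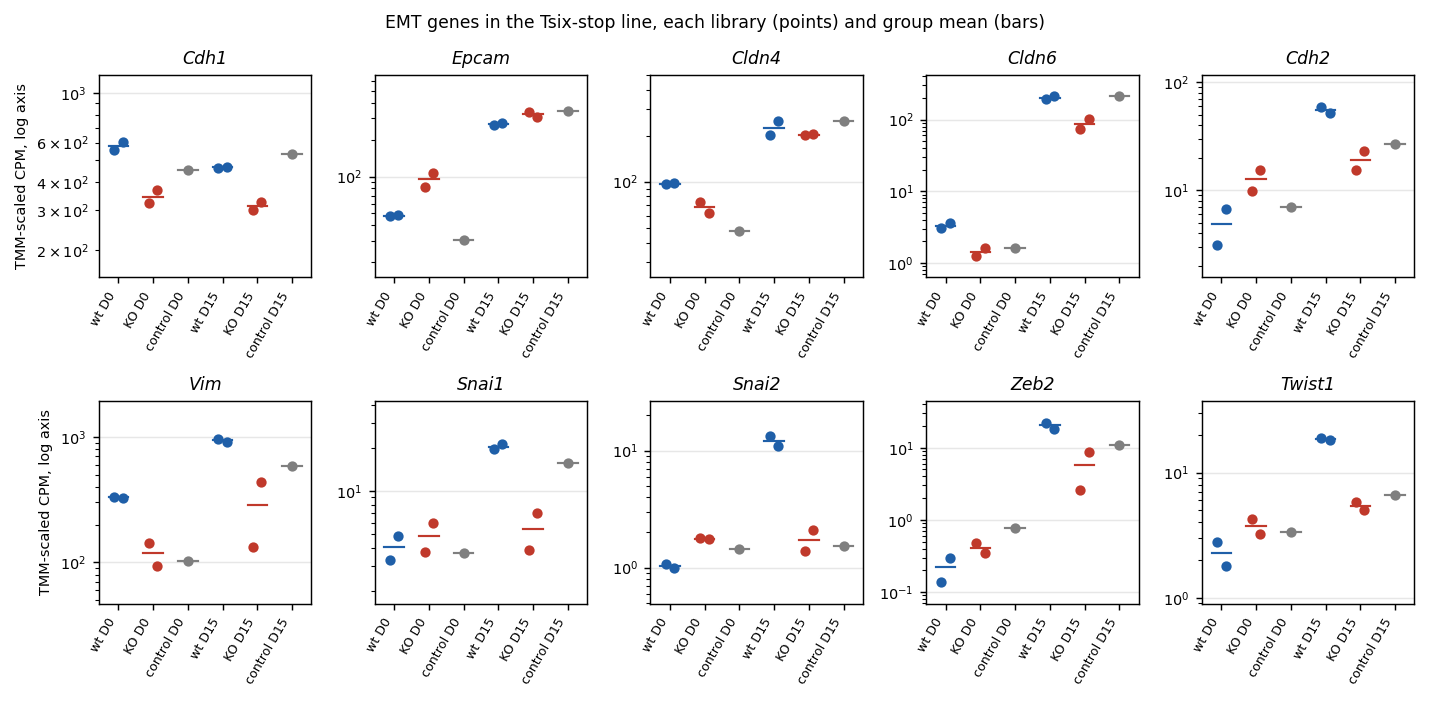
Level of each EMT gene in the 10 Tsix-stop libraries, as TMM-scaled CPM on a log axis; points are libraries (wt blue, Kdm6a KO red, CRISPR control grey) and bars are group means. At D15 the 2 wt libraries lie above the 2 KO libraries for Cdh2, Vim, Cldn6 and all 4 transcription factors, while Epcam and Cldn4 rise in every genotype.

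The first question was how these genes moved when wt Tsix-stop cells differentiated. In wt cells, 9 of the 10 genes rose from D0 to D15 and none fell, in a comparison in which 37.8% of all genes tested were called, 24.2% higher and 13.6% lower (edgeR quasi-likelihood test, Benjamini-Hochberg adjusted p of at most 0.1 and at least 2-fold). In bulk RNA, more cells of a type and more RNA per cell cannot be told apart. Snai2 reached the minimum of 2.5 CPM only in wt at D15, so it could enter the test only through the group where it was high. Zeb2 reached that minimum only in D15 libraries of wt and KO, so it too could enter only through the day when it was high.

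Among the epithelial genes, Cldn6 went from 3.04 and 3.62 CPM to 193 and 212 CPM, a log2 fold change of 6.02 ± 0.22 (SE; edgeR adjusted p = 1.12e-06). Epcam went from 47.2 and 48.8 CPM to 264 and 275 CPM (log2 fold change 2.58 ± 0.14). Cldn4 went from 95.9 and 97.6 CPM to 200.4 and 248 CPM (log2 fold change 1.30 ± 0.14). Cdh1 was the exception. Its wt libraries held 557 and 602 CPM at D0 and 462 and 468 CPM at D15, a log2 difference of -0.23 ± 0.11 that is under 2-fold (edgeR adjusted p = 0.097).

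The mesenchymal genes and the transcription factors rose in the same libraries. Cdh2 went from 3.12 and 6.63 CPM to 59 and 51.7 CPM, a rise of 12.1-fold (log2 fold change 3.60 ± 0.38, edgeR adjusted p = 5.45e-05). Vim went from 334 and 323 CPM to 967 and 902 CPM, or 3.02-fold (edgeR adjusted p = 0.0128). Zeb2 was close to absent in ES cells, at 0.139 and 0.300 CPM (9 and 17 counts), and reached 22.4 and 18.4 CPM. Snai2 went from 1.08 and 0.988 CPM to 13.3 and 11 CPM, Twist1 from 2.79 and 1.80 CPM to 18.8 and 18.3 CPM, and Snai1 from 3.26 and 4.85 CPM to 19.5 and 21.3 CPM. None of these 6 genes had overlapping libraries between the days, and the share of all genes without overlap is not given here. Without wt D0 replicate 2, the log2 fold change was 4.22 for Cdh2 and 7.25 for Zeb2, against 3.60 and 6.63 with all libraries. The rise of the transcription factors thus stood beside a Cdh1 level that moved by less than 2-fold, and beside a rise of the other 3 epithelial genes.

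The second question was whether the loss of Kdm6a changed the 10 genes in ES cells. At D0, 3 of the 10 genes were called, 1 higher and 2 lower, where 8.12% of all genes were called, 3.11% higher and 5.01% lower. With the CRISPR control added to wt, 0 of the 10 were called by edgeR (4 had an unadjusted p under 0.05), and the calls over all genes went from 1066 to 20. Cdh2 was higher in KO (9.87 and 15.4 CPM against 3.12 and 6.63 CPM in wt; log2 fold change 1.35 ± 0.36, edgeR adjusted p = 0.0421). Cldn6 was lower (1.27 and 1.61 CPM against 3.04 and 3.62 CPM; log2 fold change -1.23 ± 0.21, edgeR adjusted p = 0.00902). Vim was lower (142 and 94.1 CPM against 334 and 323 CPM; log2 fold change -1.50 ± 0.46, edgeR adjusted p = 0.0642).

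Fibroblast and feeder markers moved with Vim at D0: 4 of 12 were called lower and 1 higher in KO, beside 5.01% and 3.11% of all genes. Their summed level was 27 to 29.6 TPM in wt, 10.7 to 11.9 TPM in KO and 14 TPM in the control. Their part in the Vim difference was not tested. These D0 calls also rest on few libraries. The call of Cdh2 was lost without wt replicate 1 (log2 difference 0.91) or KO replicate 2 (1.01), and without wt replicate 2 its log2 fold change was 1.97. The call of Vim was lost without any 1 of the 4 D0 libraries or of the 2 wt D15 libraries, and held only without KO D15 replicate 1 or 2. Cdh1 was 1.71-fold lower in KO at D0 (323 and 368 CPM against 557 and 602 CPM; edgeR adjusted p = 0.0047) and Epcam 1.94-fold higher (82.3 and 107 CPM against 47.2 and 48.8 CPM; edgeR adjusted p = 0.00405), both under the 2-fold limit and both with libraries apart. Epcam passed the 2-fold limit without KO replicate 1, at a log2 fold change of 1.13, and Twist1 did without wt replicate 1, at 1.05. None of the transcription factors was called at D0. The KO libraries of Snai2, Zeb2 and Twist1 lay above those of wt, but the control also lay above wt for all of them. It held Zeb2 at 0.773 CPM, above both KO libraries, Twist1 at 3.34 CPM, within the range of KO, and Snai2 at 1.44 CPM, between wt and KO. The share of all genes with libraries apart at D0 is not given here.

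At D15 the picture in KO was different. The test called 7 of the 10 genes lower in KO than in wt and none higher, beside 14.9% of all genes (11.1% lower, 3.83% higher). The 7 were both mesenchymal genes, all 4 transcription factors and Cldn6. The median log2 difference over the 10 genes was -1.69, beside -0.00175 over all genes tested.

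Snai2 entered this test only through the wt D15 libraries, where it was high, so it had to differ. Its KO libraries held 1.38 and 2.09 CPM and the wt libraries 13.3 and 11 CPM (7.34-fold lower; log2 fold change -2.88 ± 0.28, edgeR adjusted p = 3.86e-04). Without the filter on low counts, the log2 fold change of Snai2 was -2.81. Snai1 was 3.94-fold lower, at 3.87 and 6.99 CPM in KO against 19.5 and 21.3 CPM in wt (edgeR adjusted p = 0.00386). Twist1 was 3.61-fold lower, at 5.79 and 4.99 CPM against 18.8 and 18.3 CPM (edgeR adjusted p = 0.00161). The KO libraries of Snai1 and Snai2 at D15 overlapped those of D0, and those of Twist1 lay above them (4.29 and 3.26 CPM at D0).

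Cdh2 was 3.04-fold lower in KO at D15, at 15.2 and 22.9 CPM against 59 and 51.7 CPM (edgeR adjusted p = 0.00951). Cldn6 was 2.42-fold lower, at 74 and 101 CPM against 193 and 212 CPM (edgeR adjusted p = 0.00134). The KO replicates lay furthest apart for Vim and Zeb2. Vim was at 132 CPM in KO replicate 1 and 438 CPM in KO replicate 2, against 967 and 902 CPM in wt (log2 fold change -1.78 ± 0.46, edgeR adjusted p = 0.0189). Zeb2 was at 2.62 and 8.77 CPM against 22.4 and 18.4 CPM (log2 fold change -1.90 ± 0.50, edgeR adjusted p = 0.0199).

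Both differences moved by over 1.5 times with either KO library. Without KO replicate 1 the log2 fold change was -1.13 for Vim and -1.25 for Zeb2, and without KO replicate 2 it was -2.88 and -3.00, all 4 still called. The Zeb2 call was lost without wt replicate 1 (-1.77, edgeR adjusted p = 0.105). Zeb2 also shares exon sequence with the antisense gene Zeb2os, and the library kit does not mark strand, so reads of the 2 genes cannot be told apart.

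The epithelial genes other than Cldn6 differed by less than 2-fold at D15. Cdh1 was 1.55-fold lower in KO, at 302 and 327 CPM against 462 and 468 CPM (edgeR adjusted p = 0.00408), much as at D0. Epcam was at 334 and 309.8 CPM in KO and 264 and 275 CPM in wt (log2 difference 0.19 ± 0.13). Cldn4 was at 201 and 205 CPM in KO and 200.4 and 248 CPM in wt (log2 difference -0.21 ± 0.13), with overlapping libraries.

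Over time, the KO cells raised 5 of the 10 genes, with none falling, where 27.6% of all genes were called (20% higher, 7.66% lower): Epcam, Cldn4, Cldn6, Vim and Zeb2. Cldn6 rose 62.8-fold in KO and 64.7-fold in wt, from the lower start. Zeb2 rose 14.2-fold in KO, at 0.473 and 0.351 CPM at D0, and 99.3-fold in wt. It passed the filter only through libraries of D15, where it was high. Its log2 fold change in KO was 3.83, and 4.47 without KO D15 replicate 1 or 2.71 without KO D15 replicate 2. The KO libraries of Vim at D0 and D15 overlapped, and its rise (log2 fold change 1.32 ± 0.46) was lost without KO D15 replicate 2, where it was 0.20, or without KO D0 replicate 2, where it was 1.04, and it was 1.95 without KO D15 replicate 1. For Snai2 the KO difference between days was 0.02 ± 0.28 on the log2 scale, for Snai1 0.21 ± 0.34, for Twist1 0.56 ± 0.26 and for Cdh2 0.64 ± 0.35, none of them called.

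The difference between days was also tested for each gene. The KO effect at D15 minus that at D0 was called lower for 5 of the 10 genes and higher for none, where 17.1% of all genes were called (10.5% lower, 6.62% higher). The 5 were Snai2 (-3.62 ± 0.40 on the log2 scale, edgeR adjusted p = 0.00129), Cdh2 (-2.96 ± 0.50, edgeR adjusted p = 0.0058), Zeb2 (-2.80 ± 0.85, edgeR adjusted p = 0.0457), Twist1 (-2.54 ± 0.37, edgeR adjusted p = 0.00344) and Snai1 (-2.22 ± 0.49, edgeR adjusted p = 0.0148). Snai2 entered this test only through the wt D15 libraries and Zeb2 only through D15 libraries, where they were high. The direction of the Snai2 value was thus largely set by how it entered, and its call is no separate support. Without the filter on low counts the Snai2 value was -3.58. With the CRISPR control added to wt, the calls of Snai2 (-2.93, edgeR adjusted p = 0.145), Zeb2 (-1.63, edgeR adjusted p = 0.36) and Twist1 (-1.97, edgeR adjusted p = 0.13) were lost, and those of Cdh2 and Snai1 held. The Zeb2 call was also lost without wt D0 replicate 1, wt D15 replicate 1 or KO D0 replicate 1, at -2.33 to -2.66, and its value was -2.15 without KO D15 replicate 1, -3.91 without KO D15 replicate 2 and -3.42 without wt D0 replicate 2. Without wt D0 replicate 2, that of Cdh2 was -3.58. For Vim the difference between days was -0.28 ± 0.63, and without KO D15 replicate 2 it was -1.38 and called. For the 4 epithelial genes it lay between -0.77 and 0.32, with none called.

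Marker genes of other cell types moved with these genes in the same libraries. Of all genes, 24.2% were called higher and 13.6% lower in wt over time, and 7.66% lower in KO over time. Between KO and wt at D15, 3.83% were called higher and 11.1% lower. Of 12 fibroblast and feeder markers, 11 were higher in wt at D15 than at D0, and 11 were lower in KO than in wt at D15. Their summed level was 27 to 29.6 TPM in wt at D0, 3011 to 3377 TPM in wt at D15, 239 to 304 TPM in KO at D15 and 170 TPM in the CRISPR control at D15. At D0 the fibroblast collagen Col3a1 was at 0.0360 and 0.0977 TPM in wt, and Dcn, Lum and Twist2 were the markers of this list at 0 in some D0 libraries. In wt D0 replicates 1 and 2, 6 and 5 of the 12 markers lay under 0.1 TPM, so the summed level came almost wholly from the other markers. Of the 8 visceral endoderm markers tested, 8 were higher in wt at D15 than at D0 and 6 were lower in KO than in wt at D15, with sums of 876 to 986 TPM in wt 34.6 to 68.9 TPM in KO and 35.3 TPM in the CRISPR control at D15, and the yolk sac transporter gene Ttr was at 0 in D0 libraries of both genotypes. Of 8 pluripotency markers, 6 fell in wt and 3 fell in KO over the same time, and 3 were higher in KO at D15 (sums of 7292 to 7631 TPM in wt and 8496 to 8854 TPM in KO at D0, and of 3180 to 3458 TPM in wt and 5348 to 6380 TPM in KO at D15). Of the 6 cardiac muscle markers tested, 6 were lower in KO at D15, with sums of 151 to 192 TPM in wt, 34.3 to 49.3 TPM in KO and 28.9 TPM in the control. On the fibroblast, visceral endoderm and cardiac lists the control thus lay with or below KO, far from wt. The part of these cell types in the levels of the 10 genes was not tested.

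The third question was whether the E8 line gave the same effect. Of the 10 genes, 9 were tested in E8, since Snai2 lay under the minimum of 2.5 TPM in all 8 libraries. Zeb2 reached that minimum only in KO at D7, so it could enter only through the group where it was high. Fold changes in E8 are on the log2(TPM + 1) scale, which understates the change of low genes.

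**Figure D2:**
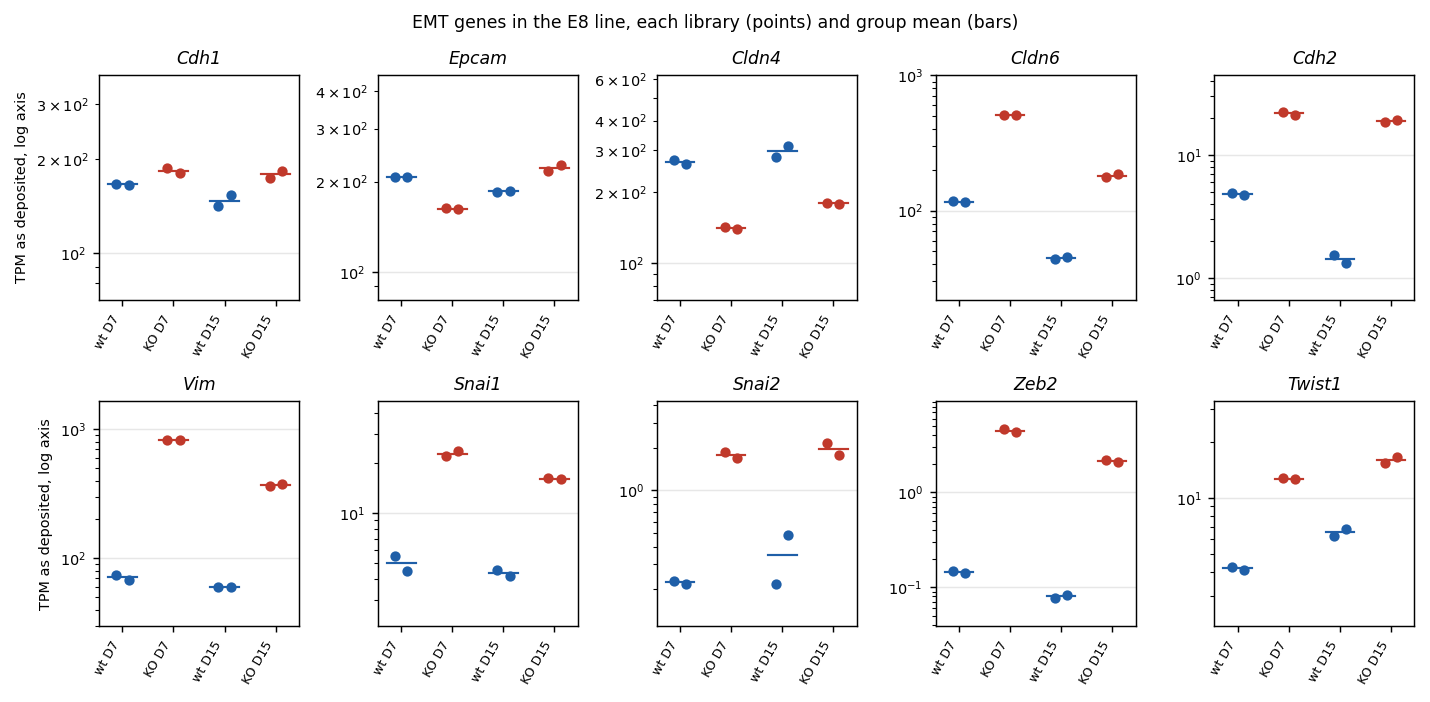
Level of each EMT gene in the 8 E8 libraries, as TPM as deposited on a log axis; points are libraries (wt blue, Kdm6a KO red) and bars are group means. Cldn6, Cdh2, Vim and the 4 transcription factors lie higher in KO than in wt on both days, and Cldn4 lies lower.

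In E8 at D7, 6 of the 9 genes were higher in KO and none lower, where limma called 17.5% of all genes (11.4% higher, 6.18% lower). At D15, 6 were again higher and none lower, where 10.7% of all genes were called (7.67% higher, 3.08% lower). The 6 were on both days Cldn6, Cdh2, Vim, Snai1, Zeb2 and Twist1. The wt libraries serve both as the reference of the KO effect and in the change over time, so these values are given side by side.

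Vim stood out. It was at 74.1 and 68.4 TPM in wt and 821 and 829 TPM in KO at D7 (log2 fold change 3.52 ± 0.04, limma adjusted p = 1.77e-09), and at 59.4 and 60.4 TPM in wt and 365 and 374 TPM in KO at D15 (2.60 ± 0.04). Between these days it fell in KO, by 1.16 on the log2 scale. Cdh2 was at 4.96 and 4.74 TPM in wt and 22.5 and 21.1 TPM in KO at D7 (1.96 ± 0.06), and at 1.55 and 1.33 TPM in wt and 18.5 and 19.3 TPM in KO at D15 (3.03 ± 0.06). The KO effect on Cdh2 was larger at D15 than at D7 by 1.06 ± 0.09 on the log2 scale (limma adjusted p = 6.23e-05), the only one of the 9 genes called, where 7.25% of all genes were (3.89% higher, 3.36% lower), and this fell under 2-fold without wt D15 replicate 2 (0.998). Cdh2 fell in wt between D7 and D15 (log2 fold change -1.26 ± 0.06) while its KO difference between days was -0.20 ± 0.06.

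The transcription factors were low in every E8 library and higher in KO. Snai1 was at 5.48 and 4.44 TPM in wt and 21.9 and 23.6 TPM in KO at D7 (log2 fold change 2.00 ± 0.09, limma adjusted p = 4.89e-07), and at 4.56 and 4.16 TPM against 16.2 and 16 TPM at D15 (1.67 ± 0.09). Twist1 was at 4.27 and 4.12 TPM in wt and 12.8 and 12.5 TPM in KO at D7 (1.39 ± 0.06), and at 6.23 and 6.86 TPM against 15.4 and 16.5 TPM at D15 (1.17 ± 0.06). Zeb2 was at 0.147 and 0.141 TPM in wt and 4.61 and 4.30 TPM in KO at D7 (2.25 ± 0.07). With a pseudocount of 0.1 TPM, the Zeb2 log2 fold change was 4.22 at D7 and 3.64 at D15, against 2.25 and 1.54 with 1 TPM. Snai2 was at 0.228 and 0.218 TPM in wt and 1.88 and 1.70 TPM in KO at D7, and without the filter its log2 fold change was 1.19 at D7 and 1.14 at D15, both called by limma.

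The epithelial genes split in E8. Cldn6 was at 117 and 116 TPM in wt and 506 and 507 TPM in KO at D7 (log2 fold change 2.11 ± 0.04, limma adjusted p = 6.67e-09), and at 43.6 and 45.5 TPM against 177 and 186 TPM at D15 (2.00 ± 0.04). It fell over time in both genotypes, by 1.37 on the log2 scale in wt and by 1.48 in KO, one of 2 of the 9 genes called lower in each. In wt, 1.41% of all genes were called over time (0.586% higher, 0.819% lower), and in KO 6.11% (3.41% higher, 2.7% lower). Cldn4 was at 272 and 262 TPM in wt and 142 and 140 TPM in KO at D7 (-0.91 ± 0.05), under the 2-fold limit. The median over all genes tested was 0.105 at D7, and when each library was rescaled to its median gene Cldn4 reached -1.14 and was called, while the small Cdh1 difference (0.14) changed sign. Cdh1 held 167 and 166 TPM in wt and 187 and 181 TPM in KO at D7, a difference whose sign depended on the scaling. Epcam lay between 162 and 227 TPM in all 8 libraries, and its KO effect was -0.35 ± 0.03 at D7 and 0.26 ± 0.03 at D15.

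In E8, too, marker genes moved with the 10 genes. Of all genes, limma called 11.4% higher and 6.18% lower in KO at D7, and 7.67% higher and 3.08% lower at D15. Of 9 visceral endoderm markers, 8 were higher in KO on each day, with sums of 1383 to 1391 TPM in KO and 28.8 to 30.1 TPM in wt at D7, and of 326 to 327 TPM in KO and 31.2 to 32.7 TPM in wt at D15. Of the 10 fibroblast and feeder markers tested, 6 were higher and 1 lower in KO at D7, and 7 higher and 1 lower at D15, with sums of at most 95.9 TPM in any library. The sum of 8 pluripotency markers was 4017 to 4157 TPM in wt and 1954 to 1985 TPM in KO at D7, where 4 of the 8 were called lower, and 4283 to 4595 TPM in wt and 2629 to 2636 TPM in KO at D15, where limma called none. The part of these cell types in the result was not tested.

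**Figure D3:**
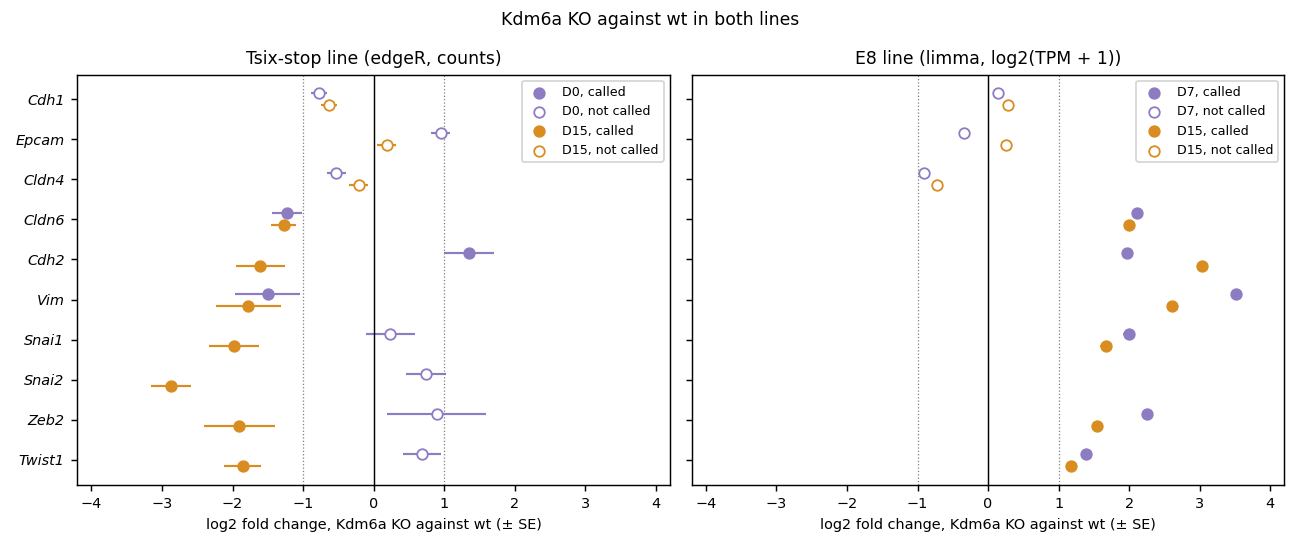
Log2 fold change of Kdm6a KO against wt (± SE) of each EMT gene, in the Tsix-stop line at D0 and D15 (left, edgeR) and in the E8 line at D7 and D15 (right, limma on log2(TPM + 1)); filled points passed the test and 2-fold, open points did not, dotted lines mark 2-fold, and Snai2 was not tested in E8. At D15 Cdh2, Vim, Snai1, Zeb2, Twist1 and Cldn6 lie left of 0 in Tsix-stop and right of 0 in E8.

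Set side by side, the 6 genes called in both lines in libraries labelled D15 were lower in KO in Tsix-stop and higher in KO in E8. The share of all genes called with opposite signs is not given here. The log2 fold change was -1.60 in Tsix-stop and 3.03 in E8 for Cdh2, -1.78 and 2.60 for Vim, -1.98 and 1.67 for Snai1, -1.90 and 1.54 for Zeb2, -1.85 and 1.17 for Twist1, and -1.27 and 2.00 for Cldn6. The lines were deposited in different units and normalized separately, so the difference between them was not tested. Line and deletion differ together: the E8 KO removed the promoter, and E8 wt cells labelled D15 held Cdh2 at 1.33 to 1.55 TPM where the wt Tsix-stop cells of D15 held 24.9 to 29.7 TPM by exon length. Other markers differed between the wt cells labelled D15 as well. Fibroblast and feeder markers summed to 41.5 to 43.9 TPM in E8 and 3011 to 3377 TPM in Tsix-stop. Pluripotency markers summed to 4283 to 4595 TPM in E8 and 3180 to 3458 TPM in Tsix-stop. The study's methods describe earlier days for E8, so the same day label need not mean the same stage. Line, deletion and stage cannot be told apart.

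**Figure D4:**
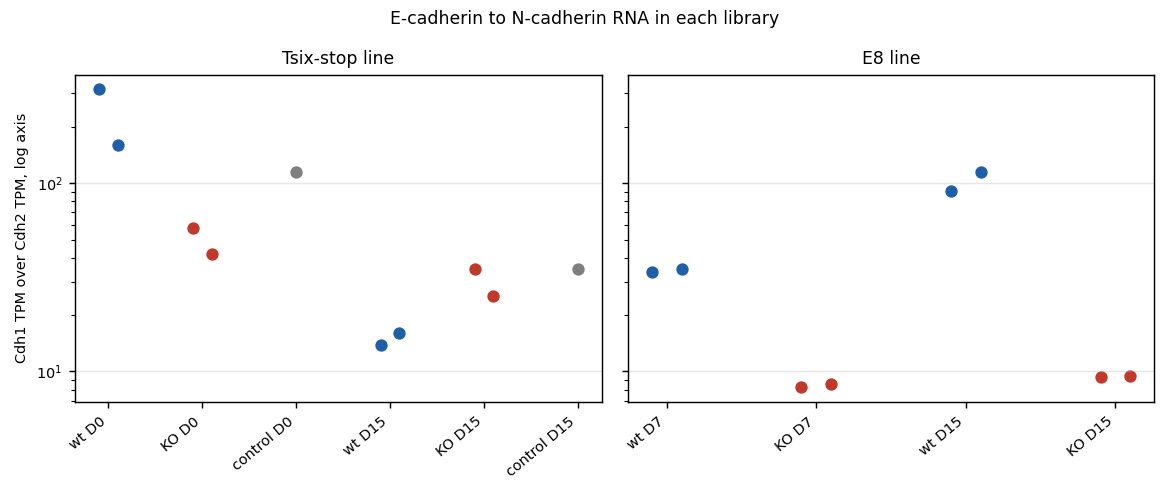
Ratio of Cdh1 TPM to Cdh2 TPM in each library, on a log axis, in Tsix-stop (left) and E8 (right); points are libraries (wt blue, Kdm6a KO red, CRISPR control grey). In Tsix-stop wt the ratio drops from 315 and 160 at D0 to 13.8 and 16 at D15, and in E8 the KO libraries lie between 8.30 and 9.50 on both days.

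The ratio of E-cadherin to N-cadherin RNA, a common readout of the transition, put these changes on 1 scale within each library. In Tsix-stop wt it was 315 and 160 at D0 and 13.8 and 16 at D15. In Tsix-stop KO it was 57.6 and 42.3 at D0 and 35 and 25.2 at D15, so the KO libraries lay below wt at D0 and above wt at D15. The CRISPR control was at 115 at D0, between KO and wt, and at 35.2 at D15, with KO and above wt. In E8 wt it was 33.7 and 34.9 at D7 and 91 and 115 at D15, and in KO it lay between 8.30 and 9.50 on both days. The ratio is given as a description and was not tested (an exact permutation test of 2 libraries against 2 cannot give a p below 0.333). Cdh1 varied less than Cdh2 over the libraries: it lay between 243 and 450 TPM in Tsix-stop, where Cdh2 lay between 1.26 and 29.7 TPM, and between 141 and 187 TPM in E8, where Cdh2 lay between 1.33 and 22.5 TPM.

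Other genes of the transition were followed as lists. Of 26 mesenchymal effector genes, which encode matrix, matrix-remodelling and contractile proteins, 22 were lower and none higher in Tsix-stop KO at D15, with a median log2 difference of -1.99 beside -0.00175 over all genes, of which 11.1% were called lower. Their summed level at D15 was 7711 to 8385 TPM in wt, 1690 to 2941 TPM in KO and 2982 TPM in the CRISPR control, which thus lay near KO. Examples were Cdh11, a mesenchymal cadherin (4.32 to 9.66 CPM in KO and 69.3 to 74.1 CPM in wt), the receptor Pdgfra (4.61 to 5.30 CPM against 43.3 to 47.4 CPM) and the collagen cross-linking enzyme Lox (4.68 to 6.32 CPM against 46.5 to 55.4 CPM). At D0 1 of the 26 was higher and 4 lower in KO, beside 3.11% and 5.01% of all genes. In E8, 24 of the 26 were tested, and 18 were higher in KO at D7 and 17 at D15, with none lower, beside 11.4% and 7.67% of all genes called higher. Examples at D7 were Acta2, smooth muscle actin (94 to 97.2 TPM in KO and 0.434 to 0.462 TPM in wt), Pdgfra (43.5 to 45.5 TPM against 1.28 to 1.30 TPM) and Sparc, a matrix protein (1804 to 1893 TPM against 107 to 108 TPM).

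Of 10 other EMT transcription factors tested in Tsix-stop, 6 were lower and none higher in KO at D15, beside 11.1% and 3.83% of all genes. They included Prrx1 (0.915 to 2.72 CPM in KO and 14.5 to 17.4 CPM in wt), Sox9 (0.881 to 2 CPM against 6.13 to 6.96 CPM) and Twist2, which is also on the fibroblast list (0.121 to 1.78 CPM against 4.69 to 6.37 CPM). Sox9 and Twist2 lay under the minimum of 2.5 CPM in KO at D15, so those libraries could not bring them into the test. Through which groups the genes of these lists entered is not given here. In E8, of 8 tested, 2 were higher at D7 and 3 at D15, beside 11.4% and 7.67% of all genes, with Twist2 the largest on both days (8.71 to 10.1 TPM in KO and 0.158 to 0.409 TPM in wt at D7). Of 10 inducers of EMT, 6 were lower in Tsix-stop KO at D15, beside 11.1% of all genes. Among them were Tgfb3 (3.45 to 3.94 CPM against 29.1 to 30.1 CPM), Tgfb1 (4.54 to 12.8 CPM against 44.7 to 46.8 CPM) and the receptor Tgfbr2. In E8, of 9 tested, 5 were higher in KO at D7 and 4 at D15, beside 11.4% and 7.67% of all genes. Tgfb2 was at 7.20 to 7.23 TPM in KO and 0.155 to 0.191 TPM in wt at D7. Both Twist2 and Tgfb2 lay under the minimum of 2.5 TPM in wt at D7, so those libraries could not bring them into the test.

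In the wider epithelial programme, the genes called between KO and wt at D15 in Tsix-stop were mostly lower, and those called in E8 mostly higher. Of 31 junction and surface genes, 26 rose in wt and 24 in KO from D0 to D15 in Tsix-stop and none fell, beside 24.2% and 20% of all genes called higher. In wt they were led by Cldn7 (0.423 to 0.432 CPM at D0 and 64.1 to 69 CPM at D15). At D15, 6 of the 31 were lower and 1 higher in KO, beside 11.1% and 3.83% of all genes, and the summed level of the list was 2601 to 2695 TPM in wt, 2013 to 2244 TPM in KO and 3358 TPM in the control. The higher one was Rab25, a vesicle transport GTPase of epithelia (63.4 to 71.2 CPM in KO and 14.9 to 18.3 CPM in wt). All 4 keratins of simple epithelia were lower in Tsix-stop KO at D15 (Krt18 at 111 to 334 CPM in KO and 650 to 656 CPM in wt) and all 4 were higher in E8 KO on both days (Krt18 at 872 to 889 TPM in KO and 81.1 to 82.5 TPM in wt at D7). The summed keratin level in Tsix-stop at D15 was 454 and 1515 TPM in KO, 2921 to 2930 TPM in wt and 3630 TPM in the control. In E8 KO, 12 of the 31 junction genes were higher and 2 lower at D7 (11.4% and 6.18% of all genes), and 14 higher and none lower at D15 (7.67% and 3.08% of all genes). Of 11 epithelial regulators in Tsix-stop, 1 was lower in KO at D15, a share near that of all genes, and Esrp1, an epithelial splicing factor, rose in both genotypes (from 0.664 to 0.988 CPM at D0 to 99.9 to 100.5 CPM at D15 in wt). None of the 9 regulators tested was called in E8 at D7 by limma, and 2 were higher at D15. The summed level of the regulators did not follow the calls. In Tsix-stop at D15 it was 678 to 686 TPM in KO, 498 to 521 TPM in wt and 571 TPM in the control. In E8 it was 253 to 260 TPM in KO and 345 to 358 TPM in wt at D7, and 328 to 339 TPM in KO and 285 to 316 TPM in wt at D15.

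The CRISPR control, 1 library per day, has no replicate check. At D15 it held Snai2 at 1.52 CPM and Twist1 at 6.60 CPM, near the KO libraries (1.38 and 2.09 CPM; 5.79 and 4.99 CPM) and far from wt. It held Cdh2 at 26.7 CPM, Zeb2 at 10.8 CPM, Snai1 at 15.6 CPM and Vim at 589 CPM, between KO and wt. It held Cldn6 at 211 CPM, within the range of wt, and Cdh1 at 534 CPM, above wt. At D0 its Vim was at 103 CPM and its Cldn6 at 1.64 CPM, also near KO, while its Epcam was at 30.1 CPM, below both. The deposited name of each control table calls it a knockout and the sample labels call it a control, which was followed here.

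When the control was added to wt, none of the 10 genes was called at D0 by edgeR (DESeq2, in the fit without the control, called 3). At D15 the count went from 7 to 5, with Vim and Zeb2 lost, and in the difference between days from 5 to 3, with Snai2, Zeb2 and Twist1 lost and Epcam added.

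SNPs between the parental strains gave the allele of origin in Tsix-stop. Snai1 and Twist1 had no SNP reads, and Zeb2 and Snai2 had fewer than 25 in every library except those of wt at D15 and, for Zeb2, the control at D15. Reads of Vim came mostly from the allele that is not from cast in ES cells: its share was 72.5% (95% Wilson interval 71.5% to 73.5%) and 74.5% in the wt libraries, 74% and 77.8% in those of KO and 70.5% in the control, on 2059 to 7412 SNP reads. The D15 shares were 51.5% and 51.6% (wt), 58.1% and 52.2% (KO) and 50.5% (control). The median of genes on the chromosome of Vim lay between 50.8% and 51.4% in all 10 libraries.

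Epcam went the other way. In ES cells the share of its SNP reads from the same allele was 27.9% and 26.5% (wt), 20.9% and 27.7% (KO) and 24.7% (control), and at D15 it was 45.3% to 47.8% in all 5 libraries. Cdh1 lay between 41.2% and 48.1% and Cldn4 between 46.8% and 53.8% over the 10 libraries, with no such split by day. The median of genes on the chromosome of Cdh1 was itself 44.4% to 47.2% in wt, 50.9% to 51% in KO and 50% to 50.7% in the control, so the share of that allele in its chromosome differed between the genotypes in which Cdh1 was compared. The part of this in the Cdh1 difference was not tested. For the chromosome of Twist1, which has no SNP reads of its own, the split was wider. Its median was 35.3% to 39% in wt, 53% to 58.5% in KO and 34.9% to 38.2% in the control. The part of this in the Twist1 difference was not tested either. Cdh2 had 55 to 248 SNP reads at D0, and its share was 70.9% (57.9% to 81.2%) in wt replicate 1 and 44.4% to 50.4% in the other 4 libraries of that day. The intervals cover counting error only, and the labels do not say whether reads were deduplicated.

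**Figure D5:**
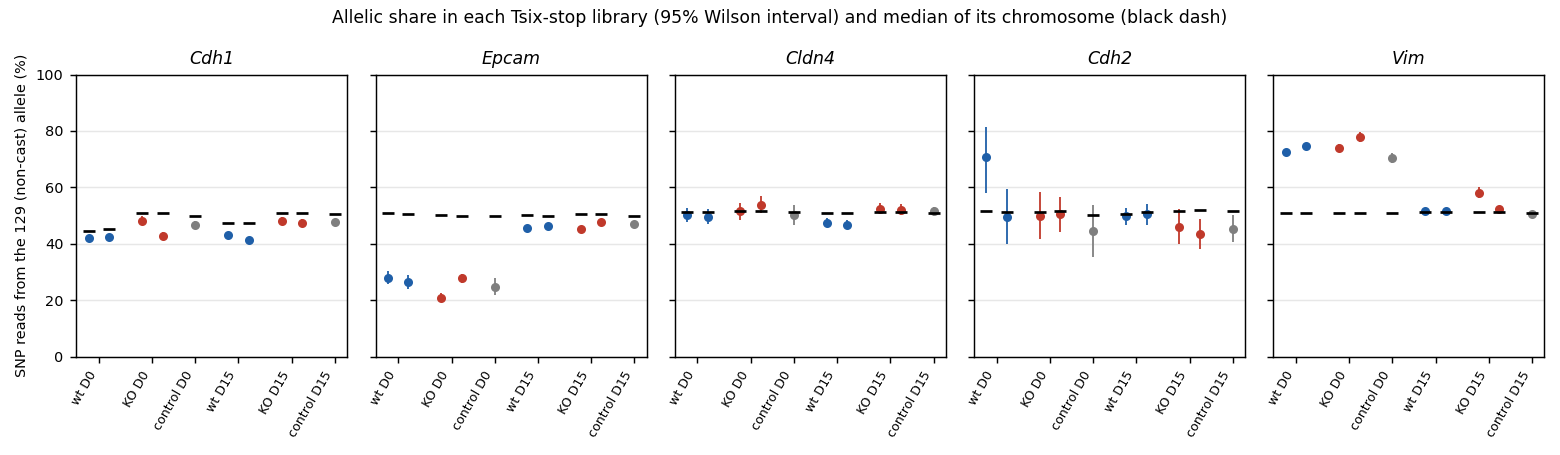
Share of SNP reads from the allele that is not from cast (percent) of Cdh1, Epcam, Cldn4, Cdh2 and Vim in each Tsix-stop library, with its 95% Wilson interval (wt blue, Kdm6a KO red, CRISPR control grey) and the median of genes on the same chromosome (black dash). Vim lies at 70.5% to 77.8% and Epcam at 20.9% to 27.9% at D0, and at D15 Vim lies at 50.5% to 52.2% in 4 libraries and at 58.1% in KO replicate 1, and Epcam at 45.3% to 47.8%, under its chromosome median of 50% to 50.6%.

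These shares set how far the rise depends on the allele counted. With reads holding a cast SNP only, a setting chosen after seeing the data that restates the shares, the wt rise from D0 to D15 was 2.43 on the log2 scale for Vim, against 1.60 with all reads, and 1.93 for Epcam, against 2.58.

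The genes whose pattern over the 10 Tsix-stop libraries was most like that of 4 members were listed by the root mean square difference of mean-centred log2 CPM (with 0.5 CPM added). For Cdh2 they were Ehbp1l1 (0.210), Pdgfrb (0.291), Afap1 (0.330), Crim1 (0.331) and Ankrd44 (0.335). For Vim they included Cd24a (0.266), Usp29 (0.353), Serpinh1 (0.390) and Palm2 (0.400). For Epcam they were Rac3 (0.179), Npdc1 (0.182), Jph1 (0.273), Elavl3 (0.277) and Rab3d (0.282). For Cdh1, which varied least of the 4, they were Arhgef18 (0.142), Gas8 (0.149), Homer3 (0.166), Dctn1 (0.166) and Aplf (0.170).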

How the data were processed

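RNA-seq tables of 18 libraries were read as deposited. The 10 Tsix-stop tables hold estimated counts per gene (7.10% of values not whole), which the authors made by aligning reads to genomes of both parental strains built on mm10, with SNP reads counted per allele. The 8 E8 tables hold TPM, normalized by the authors. The submitters' processing notes name Bowtie2 2.4.5 and TopHat2 2.1.1; the study's methods name TopHat for gene totals, in another version, and bowtie2 for allelic reads. Gene totals were read from the first value column of each table, whose header names the strain that is not cast. Symbols given more than once in E8 (537 rows) were summed.

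Counts were rounded, scaled by TMM and tested with edgeR 4.0.16 (quasi-likelihood, R 4.3.3) over 13121 genes with at least 2.5 CPM in 2 of 8 libraries, with 1 group per genotype and day. Levels in CPM were scaled by TMM over all 10 libraries. TPM of Tsix-stop was computed from counts and exon lengths (GENCODE vM21; 23975 of 24346 symbols matched). E8 was tested with limma 3.58.1 on log2(TPM + 1) over 12452 genes with at least 2.5 TPM in 2 of 8 libraries. A gene was called at a Benjamini-Hochberg adjusted p of at most 0.1 over all genes tested and at least 2-fold. The CRISPR control stayed out of the fits, with 1 library per day. Both fits were tested on simulated data.

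All 10 members are named. Of each other list, the text gives counts and up to 3 called genes with the largest change whose libraries do not overlap. A named gene under the minimum in 1 group could enter the test only through other groups, where it was higher. The members and lists were chosen with earlier results of these data known. Alternatives were DESeq2 1.42.0, other scalings, filters, pseudocount and count columns, the control added to wt, each library left out, and a replicate block. Only SNP reads of Tsix-stop were used for allelic shares, since E8 gives allelic TPM without counts. Tsix-stop depth was between 51091152 and 68796179 counts and between 9210225 and 12095548 SNP reads. The E8 labels give D7 and D15 where the methods describe earlier days, and were followed. A gene whose pattern was like that of Vim is not reported here.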

Additional observations from a re-analysis of the deposited data

Results flagged for a closer look

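The effect of the Kdm6a KO differed between days in the Tsix-stop line, by the test of the difference itself (edgeR, KO effect at D15 minus that at D0, on the log2 scale), for Cdh2 (-2.96), Snai1 (-2.22), Snai2 (-3.62), Zeb2 (-2.80) and Twist1 (-2.54). Snai2 entered this test only through the wt D15 libraries and Zeb2 only through D15 libraries, where they were high. With the CRISPR control added to wt, the calls of Snai2, Zeb2 and Twist1 were lost. In E8 it differed for Cdh2 between D15 and D7 (1.06, limma).

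In libraries labelled D15, the KO difference had opposite signs in the 2 lines for 8 of the 10 genes. The share of all genes with opposite signs is not given here. The log2 differences of KO against wt were, for Tsix-stop and then E8, -0.63 and 0.28 for Cdh1, -1.27 and 2.00 for Cldn6, -1.60 and 3.03 for Cdh2, -1.78 and 2.60 for Vim, -1.98 and 1.67 for Snai1, -2.88 and 1.14 for Snai2 (E8 without the filter on low values), -1.90 and 1.54 for Zeb2 and -1.85 and 1.17 for Twist1. The difference of Cdh1 was under 2-fold and not called in either line. The difference between lines was not tested. In Tsix-stop at D15 the CRISPR control lay near KO for Snai2 and Twist1, and with it added to wt the calls of Vim and Zeb2 were lost. Groups held 2 libraries at most, so no group could be searched for a library far from the others.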

How the results depend on the processing

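All counts in this section are of the 10 genes called, unless all genes are named. With the CRISPR control added to wt, 0 genes were called for KO against wt at D0 and 3 in the difference of the KO effect between days (3 and 5 without it), and that difference changed sign for Cdh1 (-0.0034). With reads holding a cast SNP only, an alternative chosen after seeing the data, that difference held 2 called genes of 8 tested, since Snai1 and Twist1, both called with all reads, have no SNP reads, and Zeb2 at D0 went to 0. The value of Cdh1, E8 D7, KO against wt, was -0.085 after rescaling to the median gene, and dropping the filter turned Snai2 over time in Tsix-stop KO (-0.027). The cause of the other changes was not tested.

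With 1 library left out, the count was 1 to 3 at D0 in Tsix-stop, 5 to 7 at D15, 3 to 6 in the difference between days and 0 to 1 in that of E8. Values that changed sign, none of them called in the full fit, ranged from -0.28 to 0.20 for Cldn6 and from -1.38 to 0.37 for Vim in the difference between days, from -0.13 to 0.54 for Snai1 at D0, and over time in KO from -0.29 to 0.59 for Snai1 and from -0.31 to 0.30 for Snai2. Snai2 has no value without either wt D15 library, nor Zeb2 in E8 without either KO D7 library, since neither then passed the filter. Over all results of single genes, 1298 alternatives kept direction and call, 26 lost the call, 6 gained it and 15 changed sign.

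Over all genes, dropping the filter moved the calls from 1066 to 1738 (KO, D0), 1958 to 3099 (KO, D15), 4965 to 7713 (wt over time) and 3625 to 5665 (KO over time) in Tsix-stop, and a pseudocount of 0.1 TPM moved those of E8 wt over time from 175 to 332. With the control added, they were 20 at D0, 1115 at D15 and 564 in the difference between days (2247 without it). The labels do not say that a replicate number marks a clone or culture. Deviations of same-numbered libraries correlated between -0.162 and 0.198, highest between the Tsix-stop KO libraries of both days, and a replicate block changed no count of the 10 genes. Depth limits Zeb2 at D0 (9 to 49 counts), and E8 tables hold no depth.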
